A study of Mus musculus with 8 samples.

Results

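The genes described here carry the symbols of mitochondrial ribosomal proteins and were chosen by symbol alone: every gene whose mouse symbol starts with Mrpl (large subunit) or Mrps (small subunit). There were 71 such genes, 45 Mrpl and 26 Mrps, among 13706 genes with a value in RNA sequencing of mouse intestinal organoids. Organoids are clusters of epithelium grown from isolated crypts, here in Matrigel with IntestiCult OGM medium. The data comprised 4 WT samples and 4 samples labelled MG53-TG, a line with global overexpression of MG53 (Trim72), a membrane repair protein and E3 ubiquitin ligase best known from muscle. The study describes WT littermates as controls for this line but gives no age for these samples, the promoter of the transgene was not given in the sources used here, and the genotype of these samples is not settled: the labels give wt and mg53-tg, whereas the study also describes its crypt organoid transcriptome as that of MG53;Lgr5 organoids, from a cross with an Lgr5 reporter line. The samples are called here as labelled, and whether both groups also carry the Lgr5 reporter allele is not known. The labels do not say whether the samples of a group came from separate mice, so that p-values measure only the spread between these samples.

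The mitochondrial ribosome translates the few proteins that mitochondrial DNA encodes, all of them hydrophobic subunits of the oxidative phosphorylation complexes. Its proteins are all encoded in the nucleus and imported, and they assemble on RNAs transcribed from mitochondrial DNA. Many descend from the bacterial ribosome and others were added in mitochondria. In the intestinal epithelium, dividing crypt cells and absorptive enterocytes both rely on mitochondria, and enterocytes are rich in them.

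Values are FPKM, fragments scaled by transcript length and library size, summed over the transcript starts of a gene or over its transcript ends where that sum was higher. FPKM is already per length, so that levels can be compared between genes. Groups were compared by limma on log2(FPKM + 1), a scale that understates the change of low genes, with Benjamini-Hochberg adjustment over all 10707 genes whose mean reached 0.5 FPKM and a threshold of 0.05. The sequencing depth behind the values is unknown. Trim72 had no entry in any of the 4 WT samples and was at 16.4, 27.4, 31.9 and 36.5 FPKM in the MG53-TG samples. Of 10 epithelial identity genes tested, 2 were higher and 6 lower, among them the keratin Krt18 (-1.11), the cadherin Cdh1 (-0.80), and, higher, Vil1 (1.05) and Lgals4 (1.42), while Epcam (0.02) did not pass the test. Under median-of-ratios scaling 2 were higher and 3 lower, and under quantile normalization 2 and 6. All 10 were expressed in every sample, with a summed level of 2432 to 2757 FPKM in WT and 2205 to 2671 FPKM in MG53-TG. Of 14 markers of mesenchyme, endothelium and immune cells, 3 passed the filter. For Col1a2 and Col3a1, the collagens of fibroblasts, this came only through MG53-TG samples 2 to 4, so that no test of them is used. Neither had an entry in WT or in MG53-TG sample 1, which the fit dropped as missing for both. In MG53-TG samples 2 to 4 Col1a2 was at 2.07, 0.926 and 0.739 FPKM and Col3a1 at 1.62, 0.904 and 1.25 FPKM. The summed level of the 3 was 1.80 to 3.24 FPKM in WT and 1.31 to 4.63 FPKM in MG53-TG, where the lowest sum, of sample 1, is Vim alone. Their part in the members' values was not tested.

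All 71 genes passed the filter, with no absent entry in any sample. Their mean level over the 8 samples ran from 3.20 FPKM for Mrpl17, a core protein of the large subunit, to 97.3 FPKM for Mrps21, a small subunit protein of the bacterial S21 family, with a median of 20.98 FPKM. The medians of the large and the small subunit genes were nearly equal, at 21.3 and 20.9 FPKM. No member lay just outside the filter, since the lowest was far above it. Of the genes with the prefix in the annotation, 12 had no entry under their own identifier, among them 5 pseudogenes, and these are not members. For 5 of the remaining 7 (Mrpl33, Mrpl51, Mrps6, Mrps24 and Mrps34) transcripts with their exon boundaries were listed under another gene. Assigned by boundary, Mrps6 stayed under the filter and the other 4 did not pass the test, with changes from -0.26 to 0.20.

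What the members share outside their names was looked for in the letters of their promoters. Whether these letters relate to the changes of the members, or to those of any transcription factor, was not tested. RefSeq promoter windows of GRCm38.p6, reaching from 250 bases before to 50 after the start, were at hand for 63 of the 71 genes (69 windows). A match to the element of NRF1, GCGCA and GCGC with any base (N) between them, on either strand stood in 18.8% of these windows, against 10.2% of 10652 windows of all genes tested. CCGGAAG, the core of ETS factors such as GABP, was found on either strand in 34.8% against 18.5%. AANATGGC, the core of YY1, was found on either strand in 27.5% against 8.68%. CACGTG, the E-box, was found in 10.1% against 10.2% and CCAAT in 39.1% against 38.5%. Matches were counted per motif, whether or not they shared bases with another. A match describes letters in a window and is no measured site.

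Stretches from 3 places are shown, in which capitals mark matches to the NRF1, ETS or YY1 letters. The first, before Mrpl45 (chr11:97315566-97315715, plus strand, 150 bases), is shown because its gene had the most NRF1 matches of any member, 3 in the whole window. The second is the 80 bases between the starts of Mrps27 and Ptcd2 (chr13:99344706-99344785, plus strand), shown because both genes were lower in MG53-TG. The third, before Mrps36 (chr13:100744660-100744809, minus strand, 150 bases), is shown as the window of a member that was higher, without a match to any of the 3. The whole Mrps27 window also held 2 YY1 matches, outside the 80 bases shown. The members past the threshold had 4 windows of lower and 3 of higher genes. Of the 4, 0 had an NRF1, 1 an ETS and 2 a YY1 match, and of the 3, 0 had any of these. These are too few to compare, and no relation of matches to changes was tested.
Mrpl45: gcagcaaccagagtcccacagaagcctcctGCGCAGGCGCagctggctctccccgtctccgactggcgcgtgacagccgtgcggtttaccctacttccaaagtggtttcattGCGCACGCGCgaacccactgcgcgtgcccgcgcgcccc
Mrps27 and Ptcd2: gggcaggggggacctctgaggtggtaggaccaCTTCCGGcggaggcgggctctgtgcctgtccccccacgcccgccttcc
Mrps36: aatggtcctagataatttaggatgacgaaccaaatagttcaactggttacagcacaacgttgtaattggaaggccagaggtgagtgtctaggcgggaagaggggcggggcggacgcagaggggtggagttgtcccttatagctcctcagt

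Few of the genes with these symbols differed between MG53-TG and WT organoids past the threshold. Of the 71, 10 passed the threshold, 3 higher (Mrpl55, Mrps5 and Mrps36, the last of which is not a protein of the ribosome) and 7 lower (Mrps30, Mrpl19, Mrps27, Mrpl1, Mrpl10, Mrps28 and Mrpl54). That is 14.1% of the members, where 45.0% of all genes tested passed it. In single directions, 4.23% of the members were higher, against 15.7% of all genes, and 9.86% were lower, against 29.3%. Among the genes whose mean lay within the members' range of levels, 46.0% passed the threshold. In 11 members, 3 higher and 8 lower, the groups did not overlap, and the share of all genes tested with groups that did not overlap was 44.7%. The median change over the members was -0.11 on the log2 scale, and over all genes tested it was -0.17.

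**Figure D1:**
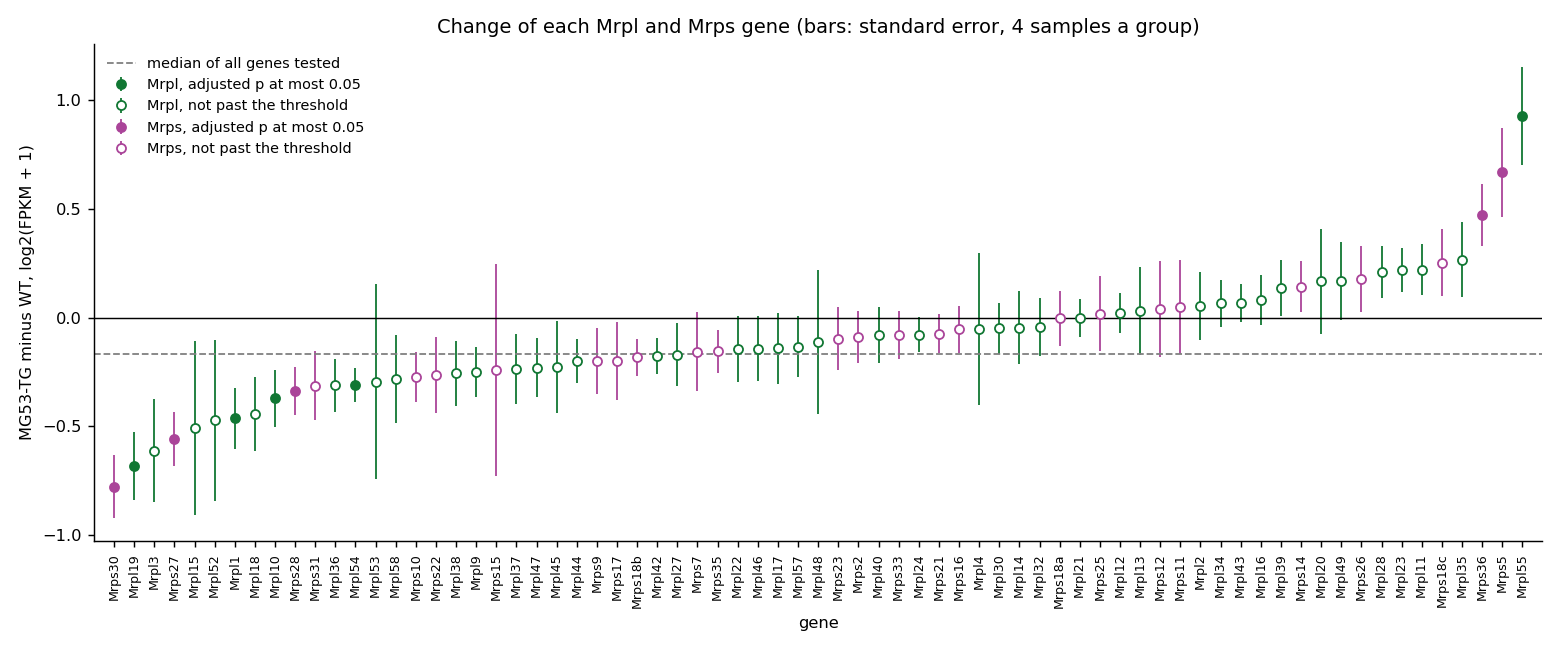
Change of each of the 71 genes, MG53-TG minus WT in log2(FPKM + 1), in order of size, with bars of 1 standard error (4 samples a group), filled where the adjusted p was at most 0.05, green for Mrpl and purple for Mrps. The changes run from -0.78 for Mrps30 to 0.93 for Mrpl55, and the dashed line marks the median of all genes tested, -0.17.

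The sign of a small change in these genes depended on how the samples were put on one scale. Median-of-ratios scaling, which sets the middle gene of each sample level, moved the median of all genes from -0.17 to -0.01 and that of the members from -0.11 to 0.07. Over all genes tested, 1682 were higher and 3134 lower as deposited, 2214 and 2196 under median-of-ratios scaling, and 2053 and 2522 under quantile normalization. Under median-of-ratios scaling 8 members were higher and 3 lower, and under quantile normalization 5 were higher and 4 lower. The calls of Mrpl55, Mrps5, Mrps36, Mrps30, Mrpl19 and Mrps27 held under both scalings. That of Mrpl54 was lost under median-of-ratios scaling, and those of Mrpl1, Mrpl10 and Mrps28 were lost under both. The number of members past the threshold fell from 10 to 5 without WT sample 3 and to 6 without MG53-TG sample 3 or sample 4.

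Of the 3 genes that were higher, Mrpl55 (chr11:59202486-59206134, plus strand, GRCm38), a large subunit protein of the bacterial L31 family, had the largest change. It was at 6.21, 9.79, 8.46 and 14.1 FPKM in WT and at 15.8, 24.4, 17.2 and 17.8 FPKM in MG53-TG. Every MG53-TG sample lay above every WT sample, and WT sample 4 came closest. The change was 0.93 ± 0.23 (SE, n = 4 a group, limma adjusted p = 0.0105), and the call held with each sample left out in turn. Both start entries of the gene began at the same base, and the one with the shorter first exon carried 95.1% of the start FPKM in WT and 97.9% in MG53-TG.

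Mrps5 (chr2:127587222-127606829, plus strand), a small subunit protein of the bacterial S5 family, was at 9.23, 12.8, 7.45 and 8.61 FPKM in WT. In MG53-TG it was at 13.1, 22.4, 13.8 and 14.0 FPKM. The groups did not overlap, but WT sample 2 and MG53-TG sample 1 were nearly level, and MG53-TG sample 2 stood well above the others. The change was 0.67 ± 0.20 (SE, n = 4 a group, limma adjusted p = 0.0267). Summed over transcript ends in place of starts, it was 0.07 with an adjusted p of 0.815, so that this call rests on the transcript starts. It was also lost without WT sample 1, 3 or 4.

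Mrps36 (chr13:100735955-100744659, minus strand) carries the prefix, but its protein is now known as a subunit of the oxoglutarate dehydrogenase complex of the citric acid cycle. It was at 18.7, 19.5, 17.6 and 19.6 FPKM in WT and at 26.2, 19.8, 30.1 and 31.7 FPKM in MG53-TG. The WT samples lay close together, and MG53-TG sample 2 was just above the highest of them. The change was 0.47 ± 0.14 (SE, n = 4 a group, limma adjusted p = 0.0271), and the call held in 2 of the 8 fits that left out a sample.

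The 7 lower genes changed by less than 1 on the log2 scale. Mrps30 (chr13:118378381-118387252, minus strand) fell the most. Despite its symbol its protein sits in the large subunit. It was at 15.2, 15.3, 15.2 and 14.997 FPKM in WT, the tightest WT group among the genes past the threshold, and at 10.04, 10.1, 7.89 and 6.26 FPKM in MG53-TG. The groups were far apart, and MG53-TG samples 3 and 4 were the lowest. The change was -0.78 ± 0.15 (SE, n = 4 a group, limma adjusted p = 0.0030), and the call held under every alternative run.

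Mrpl19 (chr6:81957851-81965958, minus strand), a large subunit protein of the bacterial L19 family, was at 9.77, 9.48, 8.99 and 9.74 FPKM in WT. In MG53-TG it was at 6.90, 6.71, 4.91 and 4.06 FPKM. The order of the MG53-TG samples was close to that in Mrps30, with samples 3 and 4 lowest. The change was -0.68 ± 0.16 (SE, n = 4 a group, limma adjusted p = 0.0075), and this call too held under every alternative run.

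Mrps27 (chr13:99344786-99415562, plus strand), a small subunit protein with pentatricopeptide repeats, was at 27.98, 26.1, 24.2 and 26.3 FPKM in WT and at 20.6, 19.3, 15.6 and 14.7 FPKM in MG53-TG. No MG53-TG sample reached the lowest WT sample. The change was -0.56 ± 0.12 (SE, n = 4 a group, limma adjusted p = 0.0065), and the call held under every alternative run. Ptcd2, a mitochondrial protein of the same repeat class involved in the maturation of cytochrome b RNA, starts head to head with Mrps27, across the 80 bases printed above. It changed by -0.46 ± 0.10 (SE, n = 4 a group, limma adjusted p = 0.0066).

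Mrpl1 (chr5:96209493-96266727, plus strand), which builds the flexible L1 stalk at the exit side of the large subunit, was at 7.42, 9.59, 9.84 and 8.34 FPKM in WT and at 6.28, 7.35, 4.91 and 5.96 FPKM in MG53-TG. The lowest WT sample, sample 1, was barely above the highest MG53-TG sample, sample 2. The change was -0.46 ± 0.14 (SE, n = 4 a group, limma adjusted p = 0.0252), and 4 of the 8 fits without a sample kept it past the threshold. Under median-of-ratios scaling it was -0.29 (limma adjusted p = 0.087). Mrpl54 (chr10:81264713-81266934, minus strand), a large subunit protein found only in mitochondria, was at 46.9, 47.1, 50.3 and 47.5 FPKM in WT. In MG53-TG it was at 36.2, 40.1, 38.4 and 39.0 FPKM. Both groups were tight and clearly separated, and the change was -0.31 ± 0.08 (SE, n = 4 a group, limma adjusted p = 0.0112). Under median-of-ratios scaling the change of Mrpl54 was -0.12 (limma adjusted p = 0.31), and the call was lost.

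The last 2 of the 7 had overlapping groups and fall outside the rule by which genes were named. Mrpl10 (chr11:97041560-97049213, plus strand), the stalk base protein that anchors the copies of Mrpl12, ranged from 21.9 to 25.4 FPKM in WT and from 15.7 to 22.9 FPKM in MG53-TG. Its change was -0.37 ± 0.13 (SE, n = 4 a group, limma adjusted p = 0.0462), and it remained past the threshold in 1 of 8 fits without a sample. Mrps28 (chr3:8802146-8923918, minus strand), which takes the place of bacterial S1 in the small subunit, ranged from 22.5 to 25.7 FPKM in WT and from 17.0 to 22.6 FPKM in MG53-TG. Its change was -0.34 ± 0.11 (SE, n = 4 a group, limma adjusted p = 0.0337), and it remained past the threshold in 2 of 8. Under median-of-ratios scaling the changes of Mrpl10 and Mrps28 were -0.19 and -0.15, and neither passed the threshold.

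**Figure D2:**
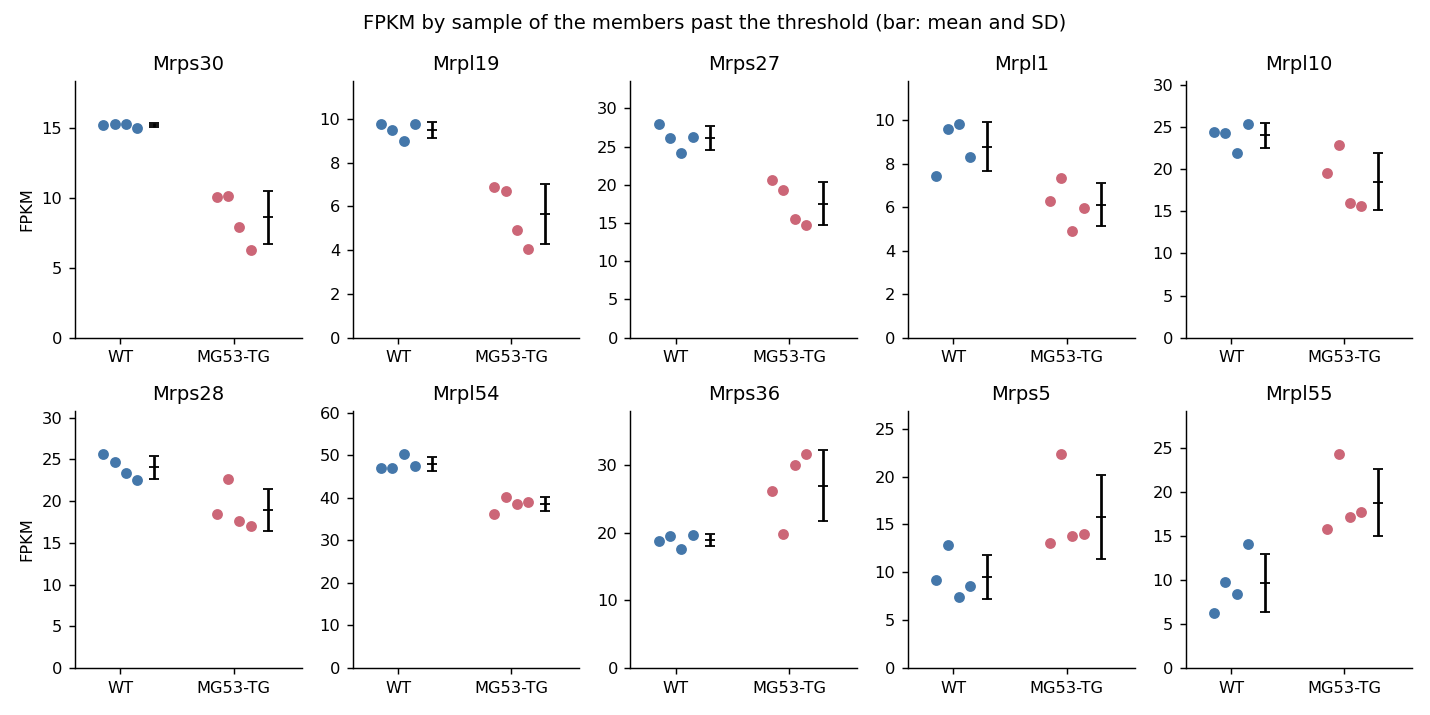
FPKM in each of the 8 samples for the 10 members past the threshold, with the mean and SD beside each group, axes starting at 0. WT and MG53-TG overlap for Mrpl10 and Mrps28 and are separate for the other 8, narrowly so for Mrps36, Mrpl1 and Mrps5.

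None of the 3 Mrpl and 3 Mrps genes with the highest mean levels passed the threshold as deposited. Mrps21 was at 111, 97.2, 96.7 and 94.6 FPKM in WT and at 103, 98.5, 89.6 and 87.9 FPKM in MG53-TG. Mrpl42, a protein found only in the mitochondrial ribosome, was at 78.4, 78.7, 71.9 and 73.2 FPKM in WT and at 66.9, 73.2, 63.5 and 63.7 FPKM in MG53-TG. Mrpl12, the stalk protein that recruits translation factors, was at 71.7, 72.0, 70.5 and 68.8 FPKM in WT and at 68.9, 83.1, 64.5 and 72.1 FPKM in MG53-TG. In all 3 the groups overlapped, and the changes of Mrps21 and Mrpl42 (-0.07 and -0.18) turned positive under median-of-ratios scaling, while that of Mrpl12 (0.02) turned negative under quantile normalization. Mrpl28, a core large subunit protein, had a mean of 50.4 ± 5.47 FPKM in WT and 58.5 ± 7.25 FPKM in MG53-TG (SD, n = 4). Mrps18c, a protein of the bacterial S18 family, had a mean of 42.2 ± 7.79 FPKM in WT and 50.2 ± 6.89 FPKM in MG53-TG (SD, n = 4). Neither passed the threshold as deposited, and both did under median-of-ratios scaling, with changes of 0.40 and 0.44. Mrps15, of the bacterial S15 family, ran from 34.7 to 52.6 FPKM in 7 samples and had only 8.58 FPKM in MG53-TG sample 2.

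The genes nearest to no change were Mrpl21, at 25.9 FPKM in both groups (a change of -0.00083), and Mrps18a, at 31.2 and 31.1 FPKM (a change of -0.0037). Mrps18a is a second gene whose protein sits in the large subunit despite its symbol. Mrps25, a small subunit protein found only in mitochondria, was at 8.61 ± 0.609 FPKM in WT and 8.94 ± 2.55 FPKM in MG53-TG (SD, n = 4), a change of 0.02 in which MG53-TG sample 3, at 12.5 FPKM, stood highest. Mrpl17, the lowest member, was at 3.38 ± 0.330 FPKM in WT and 3.03 ± 0.785 FPKM in MG53-TG (SD, n = 4).

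No difference between the 2 subunits exceeded the spread between samples. As deposited, of the 45 Mrpl genes 1 was higher and 4 were lower, with a median change of -0.13. Of the 26 Mrps genes 2 were higher and 3 were lower, with a median of -0.09. Over all genes tested 15.7% were higher and 29.3% lower, with a median of -0.17. Under median-of-ratios scaling the medians of the Mrpl and the Mrps genes were both positive, 0.04 and 0.09, and that of all genes was -0.01. Sorted by the place of the protein, with Mrps30 and Mrps18a in the large subunit and Mrps36 in neither, 1 of 47 large and 1 of 23 small subunit genes were higher, and 5 and 2 were lower. The mean log2 level of the Mrpl genes minus that of the Mrps genes was 0.003, 0.022, 0.123 and 0.035 in the WT samples. In the MG53-TG samples it was -0.085, 0.088, 0.068 and 0.022. The groups overlapped over most of their range, and the group means differed by -0.022, smaller than the SD within a group (0.066). By origin, and as deposited, 3 of 27 proteins found only in mitochondria were lower and 0 higher, with a median of -0.18. Of 43 with bacterial relatives 2 were higher and 4 lower, with a median of -0.05. The lower shares, 11.1% and 9.30%, were both under the 29.3% of all genes tested. The median of the proteins found only in mitochondria was close to that of all genes, -0.17.

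**Figure D3:**
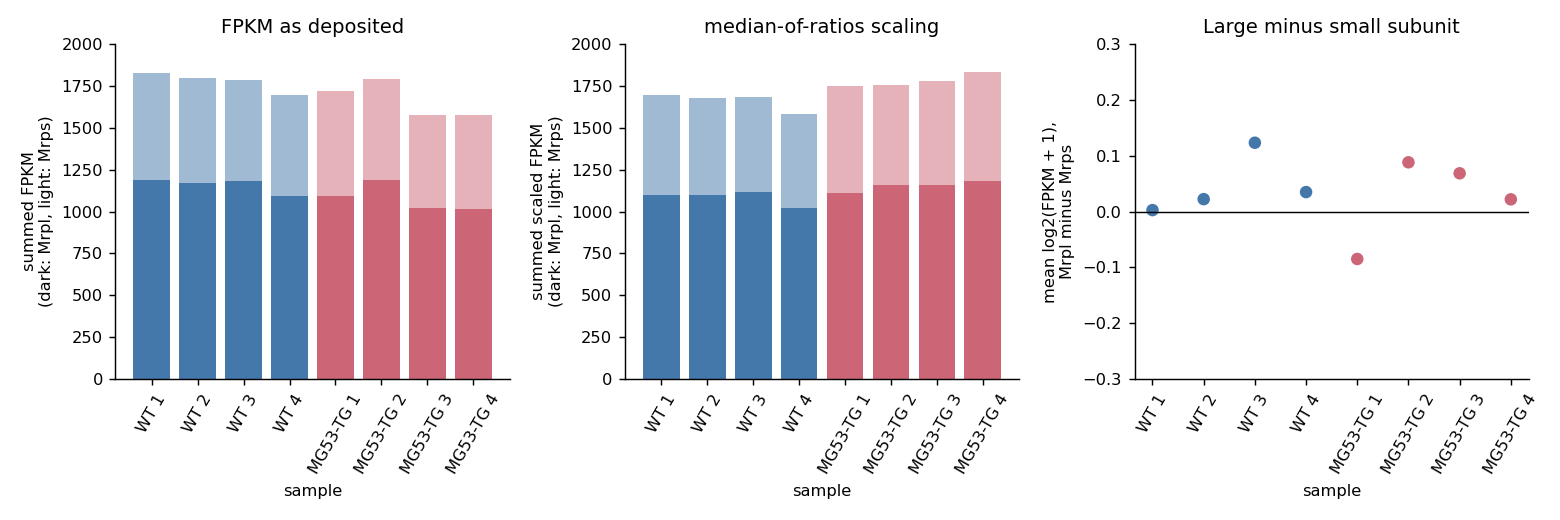
Summed FPKM of the Mrpl (dark) and Mrps (light) genes in each sample, as deposited (left) and after median-of-ratios scaling (middle), and the mean log2(FPKM + 1) of Mrpl minus Mrps genes (right), blue for WT and red for MG53-TG. The sums of MG53-TG samples 3 and 4, 1575 and 1577, are the lowest as deposited, all 4 MG53-TG sums are the highest after scaling, and the differences between subunits overlap.

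Summed over all 71 genes, the level was 1776 ± 58 FPKM in WT and 1666 ± 108 FPKM in MG53-TG (SD, n = 4). After median-of-ratios scaling it was 1661 ± 54 in WT and 1779 ± 38 in MG53-TG, and the groups, from 1580 to 1698 and from 1749 to 1832, no longer overlapped. The summed level therefore had no direction that held across scalings. As deposited, the MG53-TG samples differed among themselves. Samples 3 and 4 lay below every WT sample in 35 and 36 of the 71 genes, and samples 1 and 2 in 20 and 18. Over all genes tested these shares were 50.5% and 51.6%, and 42.8% and 39.3%. After median-of-ratios scaling the order turned, with summed levels of the members of 1749, 1753, 1781 and 1832 in MG53-TG samples 1 to 4. The SD of the members' mean log2 level fell with this scaling from 0.096 to 0.019 in MG53-TG. In WT it was 0.042 and 0.043. The summed level of 18 proliferation genes ran from 852 to 915 FPKM in WT and, in the order of the MG53-TG samples, was 573, 599, 264 and 175 FPKM, and that of 18 enterocyte genes, all 18 of them higher by the test, was 883 to 1086 FPKM in WT and 9643 to 12946 FPKM in MG53-TG. The part of these in the members' values was not tested, and in bulk samples fewer cells of a type and less RNA per cell cannot be told apart. As deposited, the coefficient of variation of a member had a median of 10.5% in WT and 16.2% in MG53-TG and was larger in MG53-TG in 49 of the 71.

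Set beside related families that were defined by symbol after values had been seen, the members lay between the cytosolic ribosome and the respiratory chain. Of 64 cytosolic ribosomal protein genes 33 were lower and 0 higher, with a median of -0.29. Of 74 nuclear genes for oxidative phosphorylation subunits, 29 were higher and 1 was lower, with a median of 0.28. Under median-of-ratios scaling 11 cytosolic ribosomal genes were lower and 1 higher, and 47 oxidative phosphorylation genes were higher and 1 lower. Under quantile normalization 38 cytosolic ribosomal genes were lower and 0 higher, and 19 oxidative phosphorylation genes were higher and 1 lower. Both counts thus moved with the scaling, but the order of the 3 medians was kept, at -0.10, 0.07 and 0.47 under median-of-ratios scaling and -0.37, 0.01 and 0.19 under quantile normalization. No test was made of the differences between families.

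**Figure D4:**
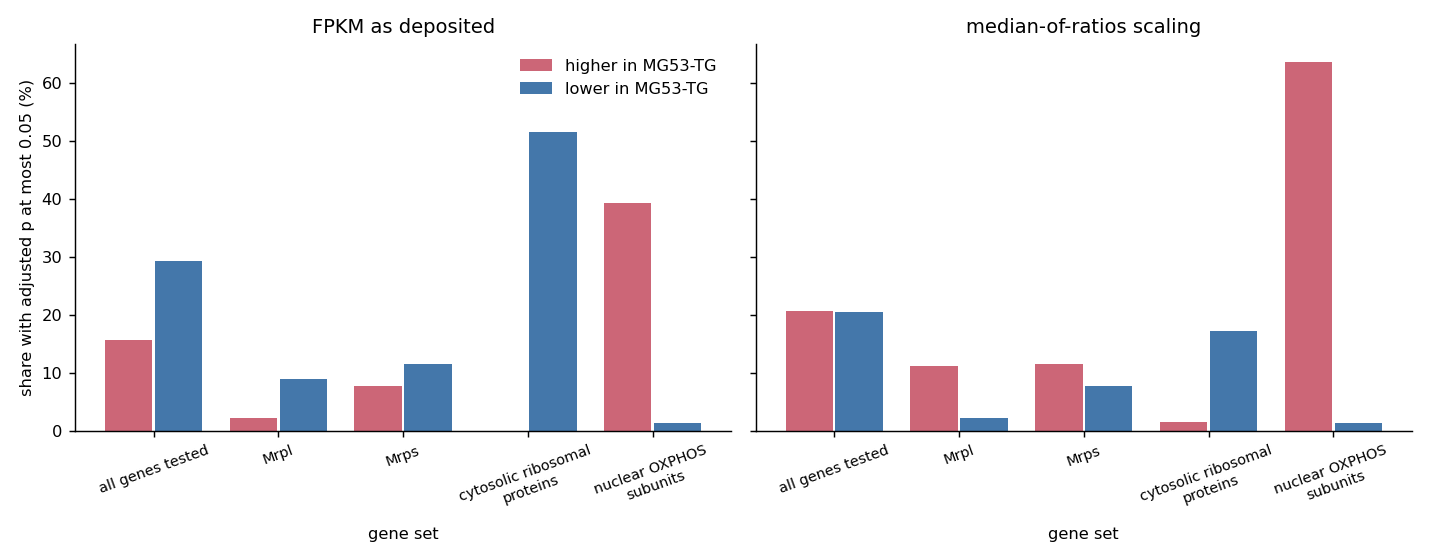
Share of genes with an adjusted p of at most 0.05 in each direction for all 10707 genes tested, the 45 Mrpl and 26 Mrps genes, 64 cytosolic ribosomal protein genes and 74 nuclear oxidative phosphorylation genes, as deposited (left) and after median-of-ratios scaling (right). Mrpl and Mrps bars stay below 12% in both panels, whereas 51.6% of cytosolic ribosomal genes are lower as deposited and 39.2% of oxidative phosphorylation genes are higher.

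Of 5 further mitochondrial ribosome proteins without the prefix, 1 passed the threshold. Ptcd3, a pentatricopeptide protein of the small subunit, was at 23.0, 21.5, 16.6 and 24.4 FPKM in WT and at 17.9, 14.7, 14.7 and 12.1 FPKM in MG53-TG. Its groups overlapped through WT sample 3, and its change of -0.49 ± 0.15 (SE, n = 4 a group, limma adjusted p = 0.0275) lost the call under both scalings and was -0.05 over transcript starts alone. The call was also lost with the highest single event (limma adjusted p = 0.129) and in 5 of 8 fits without a sample. The changes of the others were -0.34 for Chchd1, -0.31 for Gadd45gip1, -0.26 for Dap3, the GTP-binding protein of the small subunit head, and 0.27 for Aurkaip1. None of these 4 passed the test.

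Most groups of genes around the ribosome also had a smaller share past the threshold than the 45.0% of all genes tested, and no difference in share was tested. Of 13 translation factors 1 was higher and 2 were lower (23.1%). Mtif2, the initiation factor that places the first tRNA, was at 15.4, 16.6, 14.4 and 14.9 FPKM in WT and at 9.57, 10.3, 10.5 and 8.89 FPKM in MG53-TG, a change of -0.59 (limma adjusted p = 0.0016). Oxa1l, which inserts new proteins into the inner membrane, changed by -0.46 (limma adjusted p = 0.0051), and Taco1, an activator of cytochrome oxidase translation, by 0.29 (limma adjusted p = 0.0226, and 0.0596 with the replicate block). The call of Taco1 was also lost in 2 of 8 fits without a sample. Of 19 mitochondrial aminoacyl-tRNA synthetases and related enzymes 1 was higher and 5 were lower (31.6%), and under median-of-ratios scaling 2 and 1. Lars2, the leucyl-tRNA synthetase, was at 11.2, 10.7, 8.002 and 11.6 FPKM in WT and at 17.9, 18.3, 24.3 and 18.4 FPKM in MG53-TG, a change of 0.87 (limma adjusted p = 0.0018). Wars2, the tryptophanyl-tRNA synthetase, changed by -0.81 (limma adjusted p = 0.0015) and Qrsl1, a subunit of the glutaminyl-tRNA amidotransferase, by -0.62 (limma adjusted p = 0.0318). The call of Qrsl1 was lost under median-of-ratios scaling (limma adjusted p = 0.051), with the replicate block (limma adjusted p = 0.0501) and in 6 of 8 fits without a sample. That of Wars2 was lost over transcript ends alone (limma adjusted p = 0.18).

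Of 24 genes for ribosome assembly and modification of its RNA 3 were higher and 6 were lower (37.5%), and under median-of-ratios scaling 3 and 3. Noa1, a GTPase of assembly, was at 14.8, 16.4, 12.6 and 15.2 FPKM in WT and at 9.73, 8.51, 4.67 and 4.56 FPKM in MG53-TG, a change of -1.06 (limma adjusted p = 0.0058). MG53-TG samples 3 and 4 were again the lowest. Trmt61b, an RNA methyltransferase, changed by -0.57 (limma adjusted p = 0.0045), a call that was lost with the highest single event (limma adjusted p = 0.0655). Trub2, a pseudouridine synthase, changed by 0.92 (limma adjusted p = 0.0030) and Nsun4, which methylates the small subunit RNA, by 0.40 (limma adjusted p = 0.0346, and 0.0684 with the replicate block). The call of Nsun4 was also lost over transcript starts alone (limma adjusted p = 0.057) and with sample weights (limma adjusted p = 0.0513). It was lost in 5 of 8 fits without a sample. Of 20 genes of mitochondrial transcription and RNA handling 1 was higher and 5 were lower (30.0%), and under median-of-ratios scaling 1 and 3. The degradation enzyme Pnpt1 changed by -0.72 (limma adjusted p = 0.0018), the RNA granule protein Grsf1 by -0.67 (limma adjusted p = 0.0032) and Mterf2 by 1.15 (limma adjusted p = 0.0057). The RNAs transcribed from mitochondrial DNA were not analysed here.

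Of 13 regulators of genes for mitochondrial proteins 1 was higher and 6 were lower, the same counts under both scalings. That is 53.8%, close to the 45.0% of all genes tested, so that the count says nothing particular about regulators. Gabpb2, a partner of the ETS factor GABP, was at 16.1, 16.1, 13.1 and 15.4 FPKM in WT and at 7.45, 9.03, 6.24 and 4.98 FPKM in MG53-TG, a change of -1.05 (limma adjusted p = 0.0012). Myc, a growth regulator, changed by -1.08 (limma adjusted p = 0.0061) and Tfeb, a regulator of lysosomal genes, by 0.46 (limma adjusted p = 0.0294), a call that was lost in 5 of 8 fits without a sample. Named outside the rule because their letters were searched for in the promoters, Nrf1 changed by -0.67 (limma adjusted p = 0.0219) and Yy1 by -0.83 (limma adjusted p = 0.0010). Members with a match to these letters were not compared with those without.

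By annotated starts, some members lie head to head with another gene. For 19 of the 71 (26.8%) a protein-coding gene on the other strand started within 1000 bases upstream or overlapped the start by at most 200, against 12.9% of the 10096 protein-coding genes tested. Of the 18 such neighbours that were tested, 4 were higher and 4 lower, a share of 44.4% beside the 45.0% of all genes tested. In 1 pair, Mrps27 with Ptcd2, both genes passed the threshold. Mrpl36 is counted among the 19 by its annotated start, but the start with most of its FPKM lay farther from the neighbour, Ndufs6, than this limit. Conversely, Mrpl46 and Mrps11 are not counted as a pair, although by the starts that carry nearly all of their FPKM (chromosome 7, 78783089 on the minus strand and 78783119 on the plus strand) they lie head to head. Neither passed the threshold, with changes of -0.14 and 0.05. In Mrps12 and Sars2, the mitochondrial seryl-tRNA synthetase, they were 0.04 (limma adjusted p = 0.90) and -0.52 (limma adjusted p = 0.0347). Strand use in the counting was not given in the sources used here, and reads of pairs that overlap cannot be told apart without it.

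Exon inclusion, a readout that the choice of genes did not use, could be measured for 3 skipped exons of members, as the share of FPKM with the exon. Of all 1207 exons tested by limma on an arcsine scale 12 passed the threshold, 0.994%, and 137 had an unadjusted p under 0.05. That share was not stable, since 0 exons passed with the replicate number as a block (126 had an unadjusted p under 0.05) and 5 to 16 with a sample left out. Of the members' 3 exons 0 passed the threshold and 0 had an unadjusted p under 0.05. In Mrps27 the inclusion of a 123-base exon (chr13:99401270-99401392) was 0.472%, 0.768%, 12.8% and 17.7% in WT samples 1 to 4 and 0.745%, 1.19%, 13.7% and 15.2% in MG53-TG samples 1 to 4. Samples 1 and 2 of each group were thus near 0 and samples 3 and 4 well above, whereas the group means, 7.93% and 7.71%, were almost the same (adjusted p = 0.998 by limma). In Mrpl24, a large subunit protein of the bacterial L24 family, a 26-base exon (chr3:87919803-87919828) was included at 40.5%, 38.9%, 37.5% and 50.4% in WT and 39.6%, 33.4%, 30.3% and 31.9% in MG53-TG. These overlapped through MG53-TG sample 1 (adjusted p = 0.624 by limma). In Mrpl15, a core large subunit protein, a 392-base exon (chr1:4776410-4776801) was included at 78.0% to 95.9% in 7 samples (adjusted p = 0.639 by limma). It was included at 18.6% in MG53-TG sample 4, where the gene itself was at 5.94 FPKM against 15.6 to 34.6 FPKM in the others. The total with and without the exon was only 2.36 FPKM there, near the minimum of 2 FPKM, against 8.65 to 15.5 FPKM in the others.

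**Figure D5:**
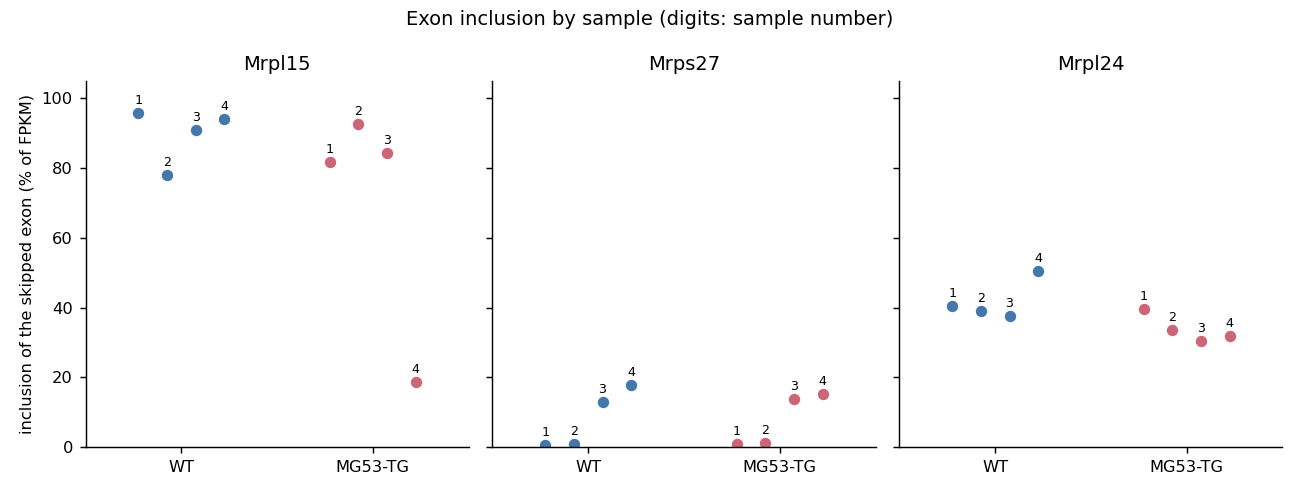
Inclusion of the skipped exon of Mrpl15, Mrps27 and Mrpl24, in percent of FPKM, for each sample, numbered 1 to 4 within WT (blue) and MG53-TG (red). For Mrps27 samples 3 and 4 of both groups lie at 12.8% to 17.7% and samples 1 and 2 below 1.2%.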

How the data were processed

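Total RNA of 8 organoid samples was sequenced, 4 for each genotype in the labels. The authors trimmed reads with Cutadapt 1.9.1, mapped them to mm10 with HISAT2 2.0.1 and name HTSeq 0.6.1 and DESeq2 in the processing notes; the deposited values are FPKM per transcript event (start, end, skipped exon and others) and sample. The tool that made the event tables was not given in the sources used here. The smallest FPKM was 1e-06, so whole reads could not be recovered and depth is unknown.

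Identifiers were matched to symbols (13732 of 13739). A gene's value was the sum of its start rows, or of its end rows where their mean was higher. An absent row was missing where the median of the group's other samples was at least 0.5 FPKM, and 0 otherwise. Groups were compared with limma 3.58.1 (lmFit, eBayes with trend, no covariates) in R 4.3.3 on log2(FPKM + 1). Exon inclusion was compared on an arcsine scale over exons with a total of at least 2 FPKM in every sample and a mean inclusion of 5% to 95%. The 70 relabellings of an exact permutation test (two-sided) allow no p below 0.0286, which 8 of the 10 members past the threshold reached. Python 3.11.15, pandas 2.3.3 and matplotlib were used for the rest. Coordinates are those of GENCODE M21 on GRCm38.

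The members and the gene lists were chosen with earlier results of these data known. Genes were named by rule: per subunit, the 5 largest increases and 5 largest decreases past the threshold without overlap of groups, the 3 highest levels and the 2 changes nearest 0; genes with an absent row or near the filter; Mrps30, Mrps18a and Mrps36; the 5 proteins without the prefix; per list, the 2 largest changes in each direction; genes with a tested exon; Trim72. Alternatives were a pseudocount of 0.1, no filter or a mean of at least 2 FPKM, 2 scalings, start rows only, end rows only, the highest single event, absent rows as 0, a replicate block, sample weights, each sample left out and, added after seeing the data, genes assigned by exon boundary.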

Additional observations from a re-analysis of the deposited data

Results flagged for a closer look

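In 11 of 142 groups of 4 samples, 1 sample stood apart from the other 3 by Dixon's test at the 95% level, where chance gives about 1 in 20 groups. Of the genes past the threshold this touched Mrps5, at 22.4 FPKM in MG53-TG sample 2 against 13.1 to 14.0 FPKM in the other MG53-TG samples. Among the WT samples, Mrpl53 was at 28.2 FPKM in sample 3 against 5.51 to 7.41 FPKM, Mrps15 at 41.0 FPKM in sample 3 against 34.7 to 35.2 FPKM, and Mrps2 at 13.2 FPKM in sample 3 against 16.4 to 16.7 FPKM. Mrps9 was at 18.7 FPKM in WT sample 4 against 26.8 to 27.9 FPKM, and Mrpl4 at 14.4 FPKM in WT sample 2 against 8.63 to 9.53 FPKM. In WT sample 1, Mrps21 was at 111 FPKM against 94.6 to 97.2 FPKM and Mrpl32 at 4.00 FPKM against 4.58 to 4.68 FPKM. Among the MG53-TG samples, Mrpl3 was at 8.24 FPKM in sample 4 against 16.1 to 17.6 FPKM, Mrpl23 at 48.8 FPKM in sample 4 against 40.2 to 41.6 FPKM, and Mrpl16 at 16.4 FPKM in sample 3 against 19.5 to 19.99 FPKM. As deposited, none of these 10 genes passed the threshold. Mrpl23 did under median-of-ratios scaling (limma adjusted p = 0.0259) and quantile normalization (limma adjusted p = 0.0488), and Mrpl3 did without WT sample 1 (limma adjusted p = 0.0493).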

How the results depend on the processing

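The count of all genes that differed (4816) stayed between 3633 and 5104 under the alternatives. Members higher and lower were 8 and 3 under median-of-ratios scaling and 5 and 4 under quantile normalization. Over end rows alone 67 members could be tested, of which 1 was higher and 8 were lower. Of the 8448 genes tested there, 1282 were higher and 2351 lower. With each sample left out, 5 to 12 members passed the threshold, 1 to 3 higher and 4 to 9 lower, and 5 to 16 exons did. In the same gene fits 36.1% to 47.7% of all genes tested passed it. The causes were not tested. The mean change of large minus small subunit genes moved between -0.045 and 0.014, within the spread between samples.

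Among the named genes, direction turned as follows: under median-of-ratios scaling in Mrpl17 (0.0017), Mrpl21 (0.19), Mrpl24 (0.11), Mrpl42 (0.01), Mrps18a (0.18) and Mrps21 (0.12), under quantile normalization in Mrpl12 (-0.016), Mrpl17 (0.0024), Mrpl21 (0.10), Mrpl24 (0.0060) and Mrps18a (0.093), over end rows in Aurkaip1 (-0.60), Mrpl21 (0.031) and Mrps18a (0.0069), and with the highest event in Mrps18a (0.0069). With samples left out in turn the change ran from -0.048 to 0.073 in Mrpl12, from -0.23 to 0.0019 in Mrpl17, from -0.039 to 0.027 in Mrpl21, from -0.49 to 0.33 in Mrps15, from -0.065 to 0.079 in Mrps18a and from -0.14 to 0.13 in Mrps25.

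No pairing by replicate number was evident, since the deviations of same-numbered samples correlated at 0.087, -0.011, 0.096 and -0.040 across genes. WT sample 1 reached 0.096 with MG53-TG sample 2, and WT sample 3 reached 0.098 with MG53-TG sample 4. WT sample 1 was at -0.076 and -0.100 with MG53-TG samples 3 and 4, and WT sample 3 at -0.087 and -0.112 with samples 1 and 2. WT samples 2 and 4 ranged from -0.040 to 0.041. A grouping of samples 1 and 2 apart from 3 and 4 in both groups was not tested. With the replicate block 4390 genes and 9 members passed the threshold (Mrpl10 was lost, limma adjusted p = 0.0602) and 0 of 1207 exons did by limma (126 with an unadjusted p under 0.05, and 12 past the threshold without the block). FPKM gives no depth, so counting error could not be set apart from the spread between samples.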
